A study of Mus musculus with 11 samples.

Results

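The comparison described here is that of doxorubicin (DX) with its vehicle, phosphate-buffered saline (PBS), in tumours growing in wild-type (WT) hosts. It takes 6 of the 11 tumour samples of the series, 3 from WT hosts given DX and 3 from WT hosts given PBS, and is described across the 10623 genes that were measured. The hosts were C57BL/6 mice of 10 to 12 weeks with the genotype label wt. Each bore an MCA fibrosarcoma grown from cells placed under the skin. Once a tumour covered 25 to 45 mm2, the DX group had 2.9 mg per kg of the drug, dissolved in 50 uL of PBS, injected into it, and the control group carries the treatment label PBS. Tumours were taken on day 2 and their total RNA was hybridised to mouse bead arrays. The other 5 samples, 2 given DX and 3 given PBS, came from FPR1-/- hosts (KO) of the same strain and age with the same kind of tumour. They entered the estimate of the spread between arrays and are otherwise set beside the WT values only briefly.

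DX is an anthracycline. It slides between DNA bases and traps topoisomerase II on cut DNA, and the resulting breaks activate the transcription factor p53, which turns on genes that stop the cell cycle or start cell death. Dying tumour cells release molecules that macrophages and other cells sense. NF-kB then turns on chemokine genes such as Cxcl1 and Cxcl2, whose products draw neutrophils through the receptor Cxcr2, and type I interferon turns on a set of antiviral genes. A tumour taken whole holds cancer cells together with infiltrating leukocytes, vessels, blood and fragments of neighbouring tissue. In such bulk RNA, more cells of a type and more RNA per cell cannot be told apart.

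The labelled tissue was checked against mesenchymal genes. Vim (vimentin), Col1a1, Col3a1 (fibrillar collagens), Dcn (decorin) and Pdgfra (a growth factor receptor of fibroblasts) were detected on all 6 WT arrays, and their log2 differences lay between -0.24 and 0.08. Over the 19 fibroblast and mesenchymal genes measured they ran from -0.66 to 0.57, and none passed. Detected probes made up 35.7% to 40.2% of the 45281 on the WT arrays. WT PBS 1, on BeadChip 2, was the dimmest array, with a median intensity of 110 where the other 5 WT arrays lay at 151 to 167. The Y-linked gene Eif2s3y gave a signal only on WT DX 2 and WT PBS 3 among the 11 arrays, 8.53 and 8.52 on the log2 scale. The X-linked gene Xist was detected on all 11 arrays, 1 of its probes having 11.01 on WT DX 2 and 10.76 on WT PBS 3. Uty, also Y-linked, had its highest signal on WT PBS 1 (6.18). The sex of the samples was not tested. In the source names every sample carries its own tumour number in an unbroken sequence, and a difference between tumour lines was not tested. Nothing in the labels says whether the replicates were separate animals, so the p-values measure the spread between these samples, which may be technical. DX and PBS arrays of WT hosts shared only BeadChip 5, which held WT DX 3 and WT PBS 3.

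Of 10623 genes, 66 passed an adjusted p under 0.05 in limma (0.621%), 59 higher in DX (0.555%) and 7 lower (0.0659%). An unadjusted p under 0.05 was reached by 1245 genes (11.7%), 710 higher (6.68%) and 535 lower (5.04%). The 3 DX arrays all lay above the 3 PBS arrays in 665 genes (6.26%) and all below in 794 (7.47%). Values are normalized log2 signals of each gene's brightest probe, and a log2 difference is the DX mean minus the PBS mean. The median difference over all genes was -0.03, and the middle 50% of genes lay between -0.18 and 0.14. A difference above 1 was seen in 165 genes (1.55%) and one below -1 in 13 (0.122%). By what their products are known to do, an assignment made after the genes were known, the 59 higher genes comprised 9 chemokines or chemokine receptors, 11 genes of neutrophils and early myeloid cells, 3 cytokines and 8 interferon-induced genes. They also held 9 receptors and enzymes of myeloid cells, 2 p53 targets, 8 skeletal muscle genes and 9 others.

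**Figure D1:**
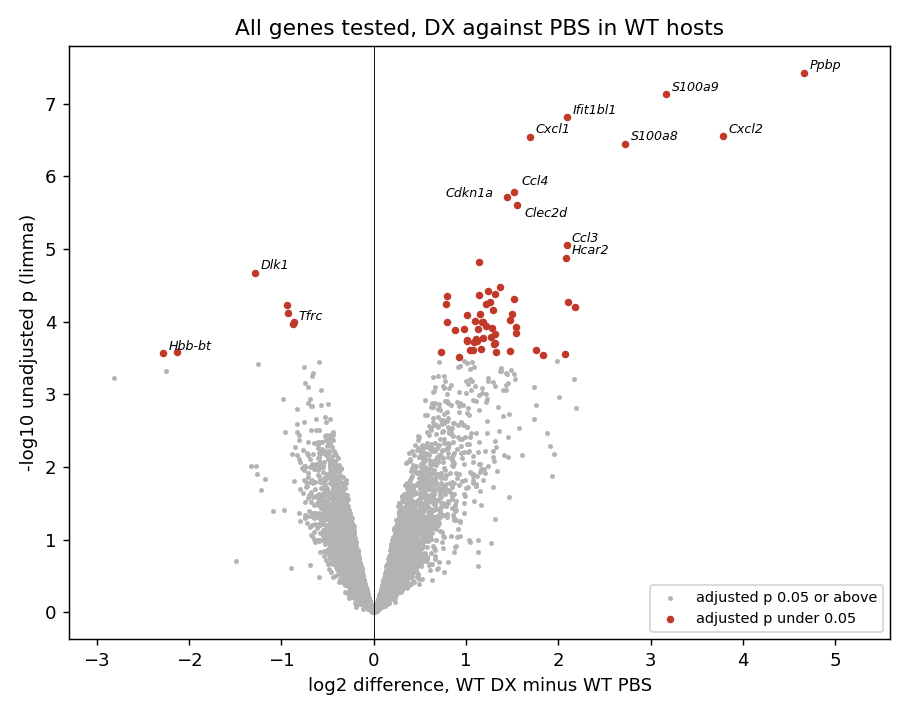
Each point is 1 of 10623 genes, with the log2 difference (WT DX minus WT PBS) on the x axis and -log10 of the unadjusted limma p on the y axis. Red points passed an adjusted p of 0.05, 59 to the right and 7 to the left. Ppbp, at a fitted 4.66 with no PBS array detected, and Cxcl2, at 3.79, lie farthest to the right.

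The number of genes called rested on few arrays. Without WT DX 1 it was 14, without WT DX 3 it was 10, without WT PBS 2 it was 24, without WT PBS 3 it was 12, without KO PBS 1 it was 39 and without KO PBS 3 it was 16. Without WT DX 2 it was 233, and all 66 genes were among them. With the 6 WT arrays alone in the fit 12 genes passed, 10 of them among the 66. Without the arrays with Eif2s3y signal, an alternative chosen after the data were seen, 64 passed and 27 of the 66 were among them. With the BeadChip as a fixed block 69 passed, of which 26 were among the 66, and all 66 kept the sign of their difference. All 66 had that sign within BeadChip 5 as well. This could not have come out otherwise, since in all 66 the DX and PBS arrays of WT hosts did not overlap. Ppbp, Cxcl2, Cxcl1, Ccl4, S100a8, S100a9, Ifit1bl1, Cdkn1a, Clec2d and Hcar2 passed in each of the 11 fits that dropped a single array. The other 56 lost their call in at least 1 of these fits. Ccl3 kept its call in 10 of the 11, Fcgr1, Klhl41, Trp53inp1 and Hbb-bt in only 2, and Lcn2 and Mxd1 in only 1.

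**Figure D2:**
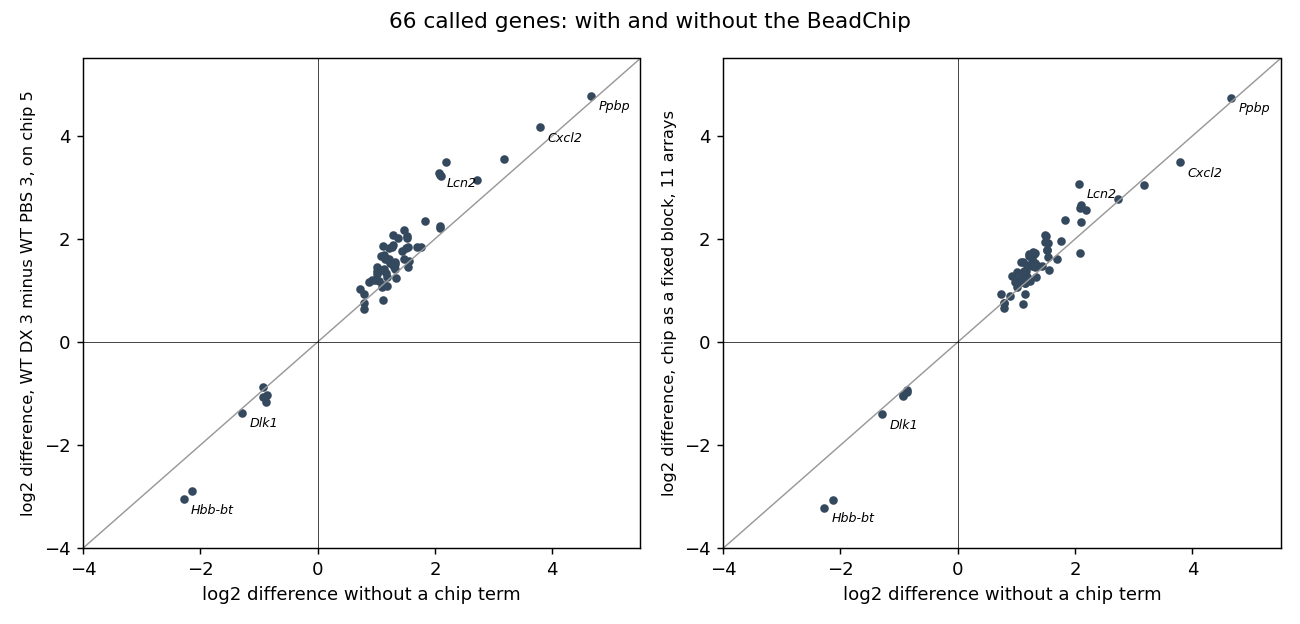
Each point is 1 of the 66 called genes. The x axis is the log2 difference (WT DX minus WT PBS) without a chip term, and the y axis is the difference between WT DX 3 and WT PBS 3 on BeadChip 5 (left) or that of the model with the chip as a fixed block (right). The grey line marks equal values, and no gene changes sign. In the left panel this was fixed beforehand, since the WT groups do not overlap in any of the 66.

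Of the chemokines that act on Cxcr2, Ppbp, Cxcl2 and Cxcl1 rose. Ppbp encodes a chemokine stored in platelets and made by myeloid cells. Its signal was 9.65, 9.38 and 9.78 on the DX arrays, against 5.05, 4.77 and 4.996 on the PBS arrays, where it was not detected. Ppbp was thus at least 18.1-fold higher in DX (adjusted p = 0.000397), taking the lowest detected signal of each PBS array as the limit. Cxcl2 had 8.99, 9.92 and 10.47 on the DX arrays and 6.02, 5.69 and 6.30 on the PBS arrays. It rose by 3.79 (SE 0.35, 13.8-fold, adjusted p = 0.000611), and the DX array lowest in Cxcl2 still stood above every PBS array. Cxcl1 had 11.17, 11.45 and 11.24 on the DX arrays and 9.84, 9.53 and 9.40 on the PBS arrays, a rise of 1.70 (SE 0.16, 3.24-fold, adjusted p = 0.000611). The DX arrays were close together in Cxcl1 and far apart in Cxcl2. With the chip as a block the differences were 3.49 for Cxcl2 and 1.62 for Cxcl1, with adjusted p = 0.0364 and 0.048, and Ppbp had an adjusted p of 0.0359. Of the 8 genes listed for Cxcr2 ligands and receptors, 5 were measured and 3 rose (median 1.70), against 0.555% of all genes. The neutrophil receptors Cxcr2 and Cxcr1 did not pass (adjusted p = 0.294 and 0.263), and neither was detected on any PBS array. A dimmer probe of Cxcl2 gave 3.97.

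Ppbp, Cxcl1 and Cxcl2 lie in 1 cluster on chromosome 5, whose order in the RefSeq annotation of GRCm38.p6 runs Cxcl5, Ppbp, Pf4, Cxcl3, Cxcl15, Cxcl1, Cxcl2. Pf4 (platelet factor 4) lies between Ppbp and Cxcl1 and had 12.26, 11.46 and 12.70 on the DX arrays, against 10.78, 10.71 and 10.81 on the PBS arrays. That difference of 1.37 did not pass (adjusted p = 0.0608), although its arrays did not overlap. The platelet list held 4 measured genes of 11, of which Ppbp rose and 3 did not pass. The promoters of Cxcl2 and Cxcl1 are shown because both carry the same stretch of letters. They are 150 bases upstream of the RefSeq start on the plus strand, Cxcl2 at chr5:90903749-90903898 and Cxcl1 at chr5:90891095-90891244 (GRCm38.p6). Capitals mark overlapping matches to the NF-kB consensus, searched on both strands.
Cxcl2: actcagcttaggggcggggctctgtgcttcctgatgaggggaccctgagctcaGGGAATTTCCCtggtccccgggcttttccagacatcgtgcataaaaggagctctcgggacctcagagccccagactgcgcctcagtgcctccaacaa
Cxcl1: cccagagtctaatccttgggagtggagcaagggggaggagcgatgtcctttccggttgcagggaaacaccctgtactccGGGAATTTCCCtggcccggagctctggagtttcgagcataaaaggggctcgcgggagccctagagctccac
In both genes the capitals spell GGGAATTTCCC. Within 250 bases upstream, 9 of the 48 higher genes with a promoter in the table held a match to this consensus (18.8%), against 10.7% of the 8613 tested genes with one and 8.23% of all 27025 promoters. None of the 6 lower genes with a promoter did. A match describes the letters and shows no binding.

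Among CC chemokines, which draw monocytes and lymphocytes, 4 of 13 measured genes rose, 0 fell and 9 did not pass (median 0.95). Over all genes 0.555% were called higher. Ccl3, an inflammatory chemokine made by macrophages, had 8.70, 9.33 and 9.55 on the DX arrays and 7.48, 6.53 and 7.29 on the PBS arrays. It rose by 2.09 (SE 0.27, 4.26-fold, adjusted p = 0.00952), a call that ended without WT DX 3 and with the chip as a block (adjusted p = 0.0689). Ccl4, a close relative of Ccl3, had 12.32, 12.45 and 12.81 on the DX arrays and 11.25, 11.01 and 10.75 on the PBS arrays, a rise of 1.52 (SE 0.17, 2.87-fold, adjusted p = 0.00253). Ccl9, a ligand of Ccr1 made by myeloid cells, had 13.28, 12.95 and 13.42 on the DX arrays and 12.09, 11.86 and 11.91 on the PBS arrays, a rise of 1.26. In all 3 genes the lowest DX array lay well above the highest PBS array. Ccl6, a relative of Ccl9, rose by 1.33 (adjusted p = 0.0452). Ccl9, Ccl6, Ccl3 and Ccl4 follow each other in that order on chromosome 11. Ccl5, which precedes Ccl9 there, had 0.94 and did not pass (adjusted p = 0.0578), although its arrays did not overlap. Ccl24, detected on no PBS array, was at least 2.57-fold higher but did not pass (adjusted p = 0.161). Ccl2, the main ligand of Ccr2, had 0.58 (adjusted p = 0.335), and Cxcl10, an interferon-induced ligand of Cxcr3, had 0.80 (adjusted p = 0.149). Neither passed. The receptors Ccr2, carried by inflammatory monocytes, and Ccrl2, which binds chemerin, rose by 1.10 and 1.18.

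**Figure D3:**
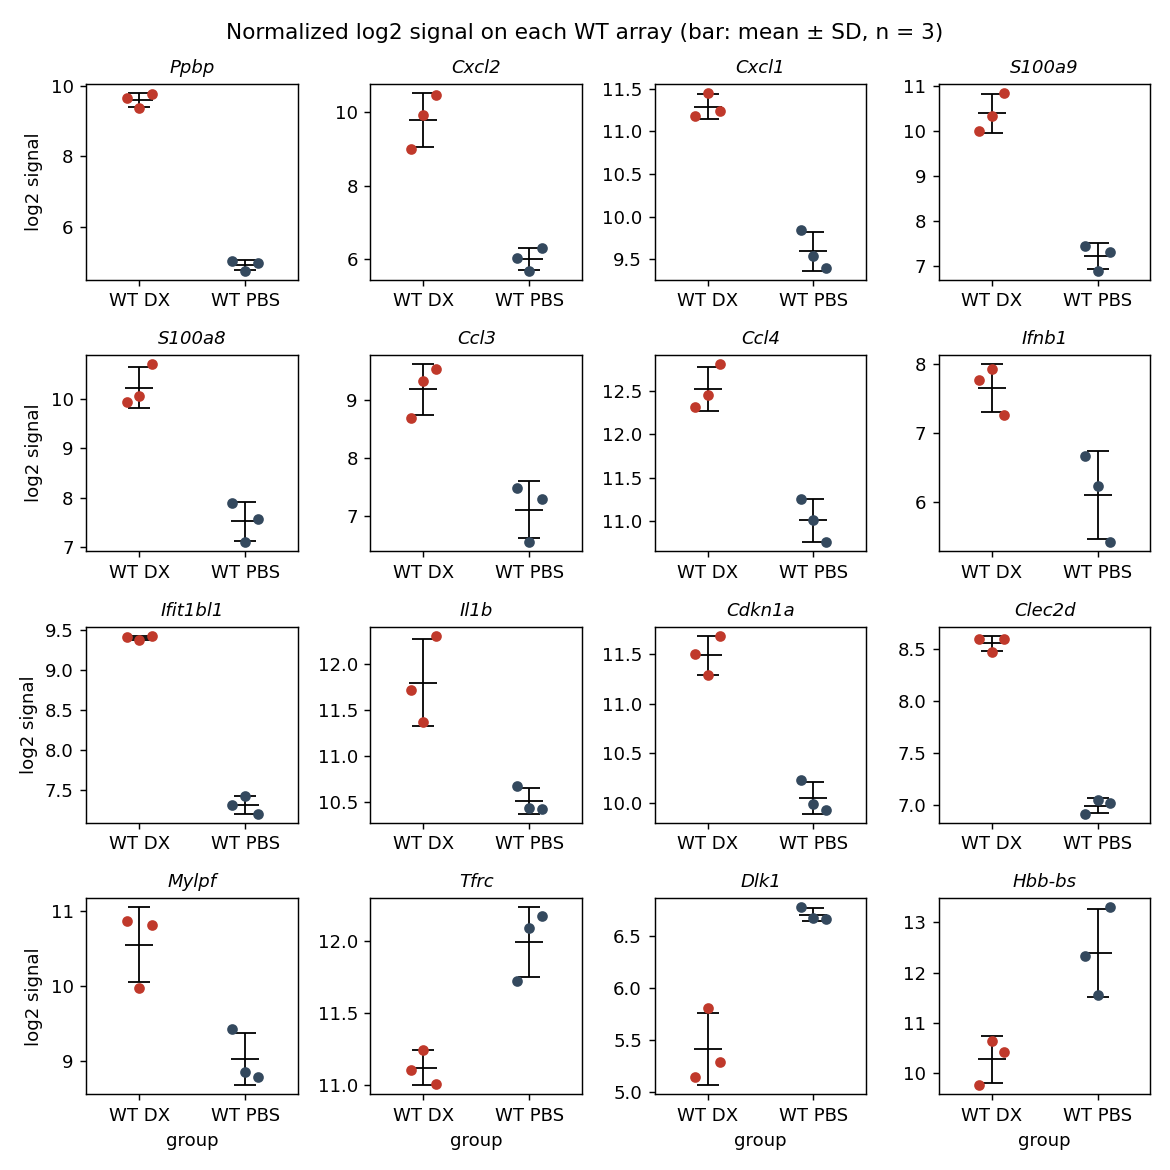
Normalized log2 signal of 16 genes on each WT array, DX (red) left of PBS (dark), each panel on its own scale. Bars are the mean and SD over 3 arrays. The groups do not overlap in any of the 16 panels, and DX is lower in Tfrc, Dlk1 and Hbb-bs.

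Genes of neutrophils and early myeloid cells rose next to these chemokines. Of 31 listed neutrophil genes 18 were measured, 6 rose, 0 fell and 12 did not pass, where 0.555% of all genes rose. The list's median was 1.12, or 0.81 with genes undetected in PBS at their lower bound where they had one. S100a9 and S100a8 encode calprotectin, the abundant cytosolic protein pair of neutrophils and monocytes. S100a9 had 9.99, 10.32 and 10.85 on the DX arrays and 7.45, 6.89 and 7.30 on the PBS arrays, a rise of 3.17 (SE 0.25, 9.02-fold, adjusted p = 0.000397). S100a8 had 9.94, 10.06 and 10.72 on the DX arrays and 7.88, 7.09 and 7.57 on the PBS arrays, a rise of 2.72 (SE 0.25, 6.61-fold, adjusted p = 0.000637). In both genes WT DX 3 stood highest and WT PBS 2 lowest. Their rises were 3.04 and 2.78 with the chip as a block, and 3.55 and 3.15 within BeadChip 5.

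Cstdc4, a stefin that inhibits cysteine proteases, had 7.98, 8.13 and 8.98 on the DX arrays and 6.81, 6.25 and 5.49 on the PBS arrays, a rise of 2.18 (adjusted p = 0.0272). Hdc, the enzyme that makes histamine, had 10.50, 10.34 and 11.37 on the DX arrays and 9.25, 8.50 and 8.16 on the PBS arrays, a rise of 2.10 (adjusted p = 0.0264). Mast cells also make Hdc. Of the 9 mast cell genes measured Hdc rose and 8 did not pass. All 9 lay above 0, where 45% of all genes did, and their median was 0.61. The list's mean stood at 0.17, -0.58 and 1.25 on the DX arrays and 0.26, -0.51 and -0.59 on the PBS arrays. Only WT DX 3 thus lay above the highest PBS array. Within BeadChip 5, which sets that array against WT PBS 3 alone, the median was 2.08. The part of mast cells in the Hdc values was not tested. The mast cell receptor gene Fcer1a and the proteases Mcpt4 and Cma1 had 0.67, 0.71 and 0.61 and did not pass (adjusted p = 0.609, 0.644 and 0.653). Lcn2, which withholds iron from bacteria, had 9.55, 8.22 and 9.89 on the DX arrays and 7.33, 7.52 and 6.61 on the PBS arrays, a rise of 2.07 (adjusted p = 0.0465). The Lcn2 call held in only 1 of the 11 fits that dropped a single array. WT DX 2 stood well below the other DX arrays in Lcn2 and closest to the PBS arrays. Ms4a8a, a membrane protein of myeloid cells, showed the same arrangement, with 8.11, 6.94 and 8.26 on the DX arrays and 5.66, 5.95 and 6.43 on the PBS arrays. It rose by 1.76 (adjusted p = 0.0452), but its other probe had 0.40. Ifitm6, an interferon-induced-type membrane protein of early myeloid cells, had 8.15, 8.24 and 8.49 on the DX arrays and 6.97, 7.24 and 6.96 on the PBS arrays, a rise of 1.24 (adjusted p = 0.0264).

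The other genes of this role rose less. Il1r2, a decoy receptor that soaks up interleukin-1, rose by 1.16, Slpi, an inhibitor of neutrophil proteases, by 1.15, Mxd1, a Myc antagonist, by 1.11 and Plac8 by 0.88. WT DX 3 was the highest DX array in all 11 genes of the role. Of the 11, 5 passed with the chip as a block and 2 passed in every fit that left out 1 array. The mean of the 18 neutrophil genes stood 0.45, 0.30 and 1.13 above the WT average on the DX arrays, against -0.47, -0.65 and -0.77 on the PBS arrays. Without WT DX 3 the list's median was 0.66.

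Of 8 interferon-induced genes that rose, Ifit1bl1 had the tightest values. This relative of the antiviral Ifit proteins had 9.42, 9.38 and 9.42 on the DX arrays and 7.31, 7.42 and 7.20 on the PBS arrays. It rose by 2.09 (SE 0.18, 4.27-fold, adjusted p = 0.000545), by 2.33 with the chip as a block and by 2.22 within BeadChip 5. Oasl1, a restrainer of interferon production, had 11.56, 11.61 and 11.41 on the DX arrays and 10.04, 10.60 and 10.00 on the PBS arrays, a rise of 1.32 (adjusted p = 0.0264). Phf11a had 11.12, 10.94 and 11.12 on the DX arrays and 9.97, 10.08 and 9.71 on the PBS arrays, a rise of 1.14 (adjusted p = 0.0264). Oasl1 and Phf11a thus split the groups by more than either group's own range. Slfn1, a Schlafen growth regulator, rose by 1.27, Siglec1, a sialic acid receptor of macrophages, by 1.18, and the DNA-binding Ifi200 proteins Ifi205, Ifi214 and Ifi207 by 1.29, 1.22 and 1.13.

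Ifi214, Ifi207 and Ifi205 belong to 1 cluster on chromosome 1, in which 8 of 13 genes were measured. The other measured members, chosen after their values were seen, had 0.71 (Ifi213), 0.75 (Ifi204), 0.68 (Mndal), 0.75 (Ifi211) and -0.06 (Aim2, the cytosolic DNA sensor), and did not pass. Probes of this gene family can share sequence, so its members' values are not fully separate. Of 46 listed type I interferon genes 36 were measured, 4 rose, where 0.555% of all genes did, and 32 did not pass. All 36 had a difference above 0, where 45% of all genes did. Their median was 0.62, against -0.03 over all genes, and 16 of the 36 had arrays that did not overlap, against 6.26% of all genes. The list's mean stood 0.41, 0.30 and 0.32 above the WT average on the DX arrays, against -0.19, -0.09 and -0.75 on the PBS arrays. WT PBS 3 was therefore the array farthest from the rest, and in all 8 called genes it was the lowest PBS array. Without that array the median was 0.43. Without the arrays with Eif2s3y signal, of which WT PBS 3 is one, it was 0.34. The list of guanylate-binding proteins and other genes known for responding to interferon gamma had no call among 18 genes (median 0.39), Cd274, which encodes PD-L1, having 1.07 (adjusted p = 0.216) and Gbp5 1.00 (adjusted p = 0.316). Ifng itself had 0.24 (adjusted p = 0.864). None of 22 antigen presentation genes passed (median 0.18), and H2-Q6 and the immunoproteasome subunit Psmb8 had 0.57 and 0.56.

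Ifnb1, the gene of interferon beta, rose among the cytokines. It had 7.76, 7.92 and 7.26 on the DX arrays and 6.67, 6.23 and 5.42 on the PBS arrays, a rise of 1.54 (SE 0.27, 2.91-fold, adjusted p = 0.0347). The gap between the groups, from WT DX 3 down to WT PBS 1, was smaller than the range within the PBS arrays. Il1b, the inflammatory interleukin-1 beta, had 11.71, 11.37 and 12.31 on the DX arrays and 10.67, 10.43 and 10.43 on the PBS arrays, a rise of 1.28 (SE 0.22, adjusted p = 0.0319). Csf2 encodes GM-CSF, which expands granulocytes and macrophages. It was detected on all DX arrays and no PBS array and was at least 1.07-fold higher (adjusted p = 0.0452). The promoters of Ifnb1 and Ifit1bl1 follow because one encodes the inducer and the other a target of the same pathway. Ifnb1 is at chr4:88522795-88522944 and Ifit1bl1 at chr19:34601969-34602118, both read on the minus strand (GRCm38.p6). Ifit1bl1 has another RefSeq start, not shown (chr19:34599428-34599577), with its match at -23 to -14, where that of the shown start lies at -104 to -95. Capitals mark the NF-kB consensus in Ifnb1 and, in Ifit1bl1, the reverse-strand reading of the core of the interferon-stimulated element, a GAAA repeat with any pair of bases between.
Ifnb1: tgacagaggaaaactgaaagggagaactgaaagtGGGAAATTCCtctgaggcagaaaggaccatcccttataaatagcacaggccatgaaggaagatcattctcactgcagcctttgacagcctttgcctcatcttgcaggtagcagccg
Ifit1bl1: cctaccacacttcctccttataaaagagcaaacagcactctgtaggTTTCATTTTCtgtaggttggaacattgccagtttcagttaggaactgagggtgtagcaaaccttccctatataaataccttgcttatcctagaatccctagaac
This core, searched on both strands within 250 bases upstream, was found in 7 of the 48 higher genes (14.6%), against 3.59% of the 8613 tested genes and 3.46% of all 27025 promoters. The 7 genes were Ifit1bl1, Ifi205, Ifi207, Ifi214, Phf11a, Clec2d and Mmp13, and none of the 6 lower genes held it.

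Other members of the cytokine pathways gave few calls. In the interleukin-1 and TNF list 2 of 15 genes rose (Il1b and Il1r2, median 0.39), against 0.555% of all genes. Il1a was detected on no PBS array (at least 1.57-fold, adjusted p = 0.0972), and Il18 had 1.03 (adjusted p = 0.103). In the list of interleukin-6 and Stat3 genes 1 of 15 rose (Csf2, median 0.40). Osm, a macrophage cytokine of the interleukin-6 family, had 9.17, 9.07 and 10.21 on the DX arrays and 8.43, 7.66 and 7.77 on the PBS arrays. That difference of 1.53 did not pass (adjusted p = 0.0676). Il6 had 1.05 (adjusted p = 0.173), and Csf3, which drives the making of neutrophils, had -0.53 (adjusted p = 0.287). Of 16 genes that NF-kB induces to restrain itself none passed (median 0.19). Tnfaip3 (0.75), Nfkbiz (0.67), Nfkbia (0.64) and Ier3 (0.81) had adjusted p = 0.0746, 0.0753, 0.0813 and 0.211. None of 19 immediate early genes passed either (median 0.20), and Atf3, a stress-induced repressor, had 0.92 (adjusted p = 0.0579), Dusp1, which switches off MAP kinases, 0.76, Zfp36, which destabilises cytokine mRNA, 0.71 and Fos 0.64.

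The 9 receptors and enzymes known from myeloid cells rose. Hcar2, the receptor of niacin and of the ketone body beta-hydroxybutyrate, had 7.88, 8.09 and 8.85 on the DX arrays and 6.58, 6.36 and 5.62 on the PBS arrays, a rise of 2.09 (SE 0.28, 4.25-fold, adjusted p = 0.0127). Clec2d, the ligand of an inhibitory NK cell receptor, had 8.59, 8.47 and 8.60 on the DX arrays and 6.92, 7.05 and 7.02 on the PBS arrays. It rose by 1.56 (SE 0.18, 2.94-fold, adjusted p = 0.00292), and its arrays differed little within either group. With the chip as a block the difference was 1.39 and missed the threshold (adjusted p = 0.053). Arg2, a mitochondrial arginase, had 6.54, 6.52 and 6.98 on the DX arrays and 4.87, 5.4998 and 5.16 on the PBS arrays, where it was detected once, a rise of 1.503. Mmp12, the elastase of macrophages, had 9.45, 9.61 and 10.07 on the DX arrays and 8.54, 8.43 and 8.05 on the PBS arrays, a rise of 1.37 (adjusted p = 0.0256). Mmp13, a collagenase, rose by 1.01, with 0.77 and 0.19 on its other probes. Lilr4b, an inhibitory immunoglobulin-like receptor, rose by 1.04, Themis2, a signalling adaptor, by 1.01, Adap2, an Arf regulator, by 1.01 and Fcgr1, the high-affinity IgG receptor, by 0.93.

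In the monocyte and macrophage list 2 of 21 genes rose (Ccr2 and Fcgr1, median 0.24), against 0.555% of all genes. Ly6c1 had 0.74 (adjusted p = 0.208), and Cd163, a haemoglobin scavenger receptor, 1.94 (adjusted p = 0.272). Of Cd163's DX arrays, WT DX 2 at 8.26 lay below the highest PBS array at 8.62. In the pattern recognition list only Hcar2 passed among 23 genes (median 0.47), and as a niacin and ketone body receptor it is not itself a pattern recognition receptor. The C-type lectins Clec4d and Clec4e, which sense mycobacterial lipids and dead cells, had 1.18 (adjusted p = 0.0756) and 0.99 (adjusted p = 0.173). Msr1, a scavenger receptor, had 0.80 (adjusted p = 0.19). The formyl peptide receptor gene Fpr2 had 0.61 and its ligand Anxa1 -0.10 (adjusted p = 0.43 and 0.877). None of the 8 T cell, 8 NK cell, 3 B cell, 8 dendritic cell and 14 endothelial genes measured passed. Their medians were 0.05, 0.24, -0.04, 0.29 and 0.11. Cd3e, a chain of the T cell receptor complex, had -0.03 (adjusted p = 0.987) and Itgax, which encodes CD11c, had -0.23 (adjusted p = 0.773). The T cell mean stood at 0.41, -0.86 and 0.66 on the DX arrays and 0.49, -0.16 and -0.55 on the PBS arrays, so that WT DX 2 was the lowest of all. In prostaglandin, leukotriene and related lipid pathways none of 11 genes passed (median 0.56), Ltc4s having 0.75, Alox5ap 0.56 and Ptgs2, the inducible cyclooxygenase, 0.80 (adjusted p = 0.425). Among 15 coagulation and fibrinolysis genes none passed (median 0.35). Thbs1, a platelet and matrix glycoprotein, had 1.40 (adjusted p = 0.0783), Serpinb2, an inhibitor of plasminogen activators, 1.95 (adjusted p = 0.211) and F10, a clotting factor, 1.41 (adjusted p = 0.212). None of 14 complement genes passed (median 0.36), Itgam, a chain of complement receptor 3, having 0.87.

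**Figure D4:**
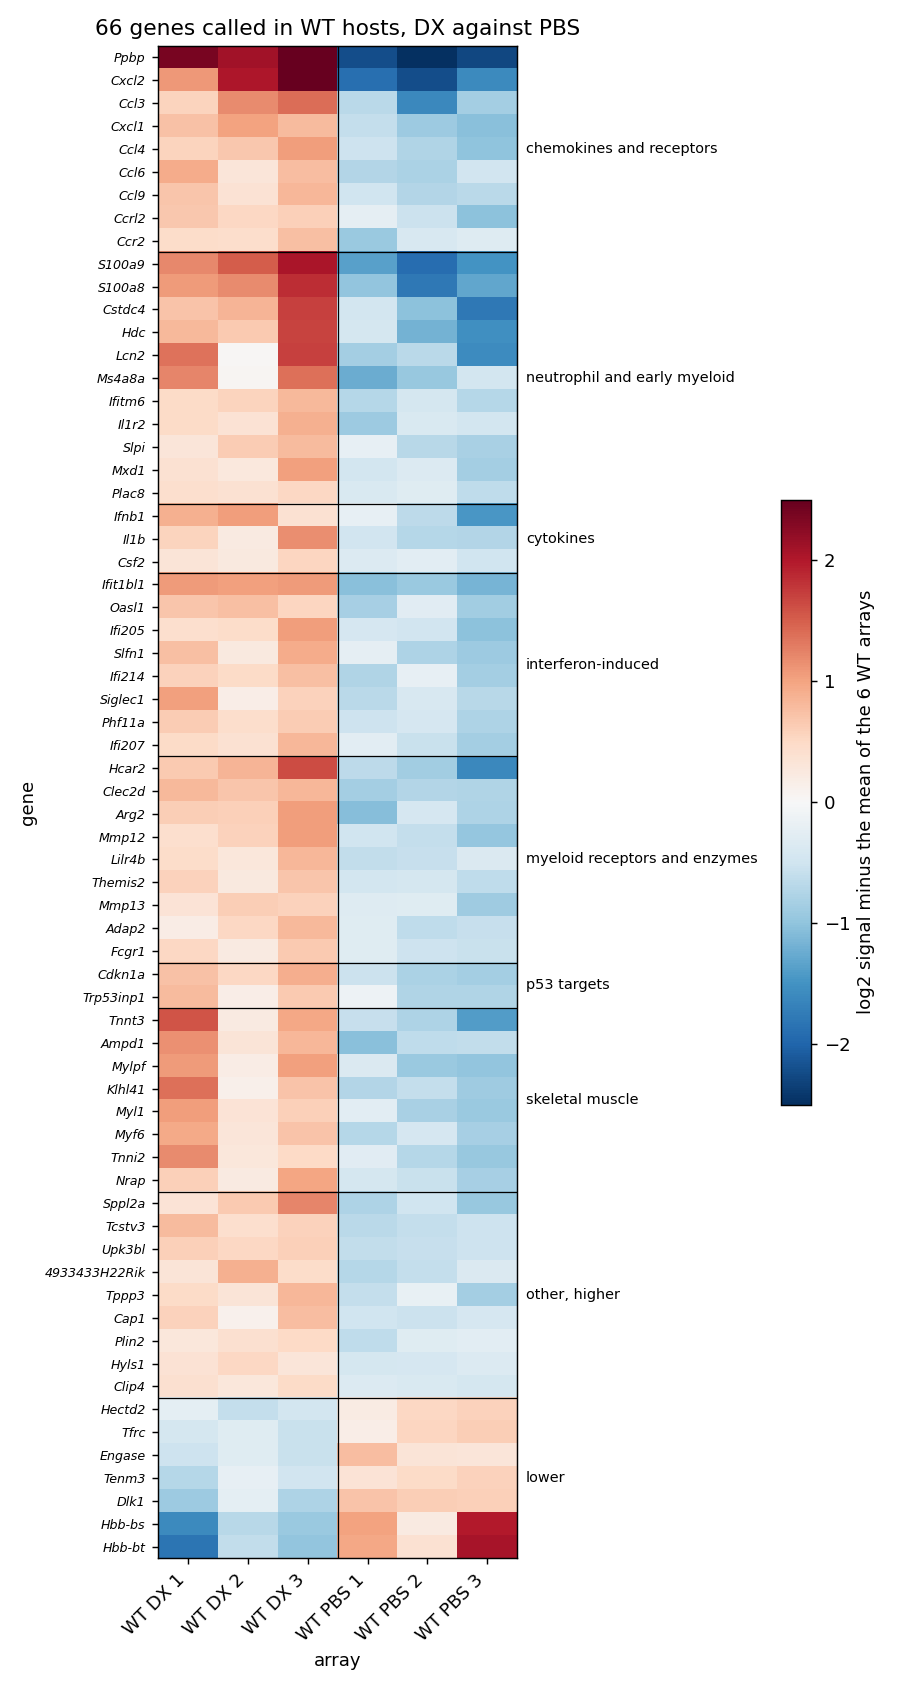
Rows are the 66 called genes by role and columns the 6 WT arrays, DX left of PBS. Colour is the log2 signal minus the gene's mean over the 6 arrays, red above and blue below, and the deepest shades of Ppbp and Cxcl2 lie at or past the end of the scale. WT DX 2 is the lowest DX array in 39 of the 59 higher genes, all 8 muscle genes among them.

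Neither p53 activity nor DNA breaks were measured here, only the RNA of known p53 targets. Of these, Cdkn1a had the largest difference. This gene encodes p21, which halts the cell cycle. Cdkn1a had 11.50, 11.29 and 11.69 on the DX arrays and 10.23, 9.99 and 9.93 on the PBS arrays, a rise of 1.44 (SE 0.16, 2.72-fold, adjusted p = 0.00253). Every DX array lay above every PBS array, and the gene's dimmer probes gave 1.86 and 1.64. With the chip as a block the difference was 1.48 and missed the threshold (adjusted p = 0.0543), and within BeadChip 5 it was 1.76. Trp53inp1, which promotes p53-driven death and autophagy, had 9.19, 8.57 and 9.04 on the DX arrays and 8.27, 7.64 and 7.65 on the PBS arrays, a rise of 1.08 (adjusted p = 0.0452). WT DX 2 and WT PBS 1 came closest to each other in this gene, which passed in only 2 of the 11 fits that dropped a single array.

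Of 41 listed p53 targets 34 were measured, 2 rose, 0 fell and 32 did not pass (median 0.19), where 0.555% of all genes rose. Ddit4l, an inhibitor of mTOR signalling detected on no PBS array, was at least 1.44-fold higher (adjusted p = 0.0698) and Dcxr, a sugar reductase, had 1.23 (adjusted p = 0.0948). Mdm2, which encodes the ligase that degrades p53, had 10.98, 10.67 and 11.03 on the DX arrays and 10.99, 10.26 and 10.58 on the PBS arrays, a difference of 0.28 (adjusted p = 0.592). WT PBS 1 lay within the range of the DX arrays in Mdm2. Of 21 genes of the Bcl2 family and death receptors none passed (median 0.19), the BH3-only genes Pmaip1 and Bik having 0.85 and 0.68 (adjusted p = 0.219 and 0.225). The Cdkn1a promoter is shown because this gene is the best known p53 target, at chr17:29090829-29090978 on the plus strand (GRCm38.p6). Capitals mark its matches to the p53 half-site consensus, searched on both strands.
Cdkn1a: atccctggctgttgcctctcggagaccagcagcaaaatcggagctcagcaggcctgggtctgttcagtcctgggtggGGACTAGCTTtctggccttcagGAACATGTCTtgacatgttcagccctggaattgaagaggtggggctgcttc
The matches lie at -73 to -64 and -51 to -42 from that start, and the 150 bases upstream of the gene's other RefSeq start, on the same chromosome, held none. Within 250 bases upstream 6 of the 48 higher genes held a p53 half-site (12.5%), against 7.24% of tested genes and 8.2% of all promoters.

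Genes of DNA repair and replication lay on the other side of 0, with no single call. None of 22 repair genes passed, and 20 of the 22 were below 0, where 45% of all genes were above 0 (median -0.21). Ung and Apex1, enzymes of base excision repair, had -0.43 and -0.55, Brca2, of homologous recombination, -0.42 and H2ax, the histone phosphorylated at breaks, -0.30 (adjusted p = 0.287 to 0.404). None of 23 replication genes passed, 20 of them below 0 (median -0.16), with Tk1 at -0.37 and the helicase subunit Mcm2 at -0.24. The replication list's mean was 0.01, -0.11 and -0.11 on the DX arrays and -0.10, 0.10 and 0.21 on the PBS arrays. WT PBS 1 thus lay among the DX arrays. Of 20 mitotic genes none passed and the median was 0.01. Top2a, the drug's own target, had 11.79, 11.75 and 11.81 on the DX arrays and 11.34, 11.73 and 11.80 on the PBS arrays, a difference of 0.16 (adjusted p = 0.69). Among 15 genes that transport or metabolise anthracyclines none passed (median 0.02), Cbr2, a carbonyl reductase, having 1.20 (adjusted p = 0.262).

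**Figure D5:**
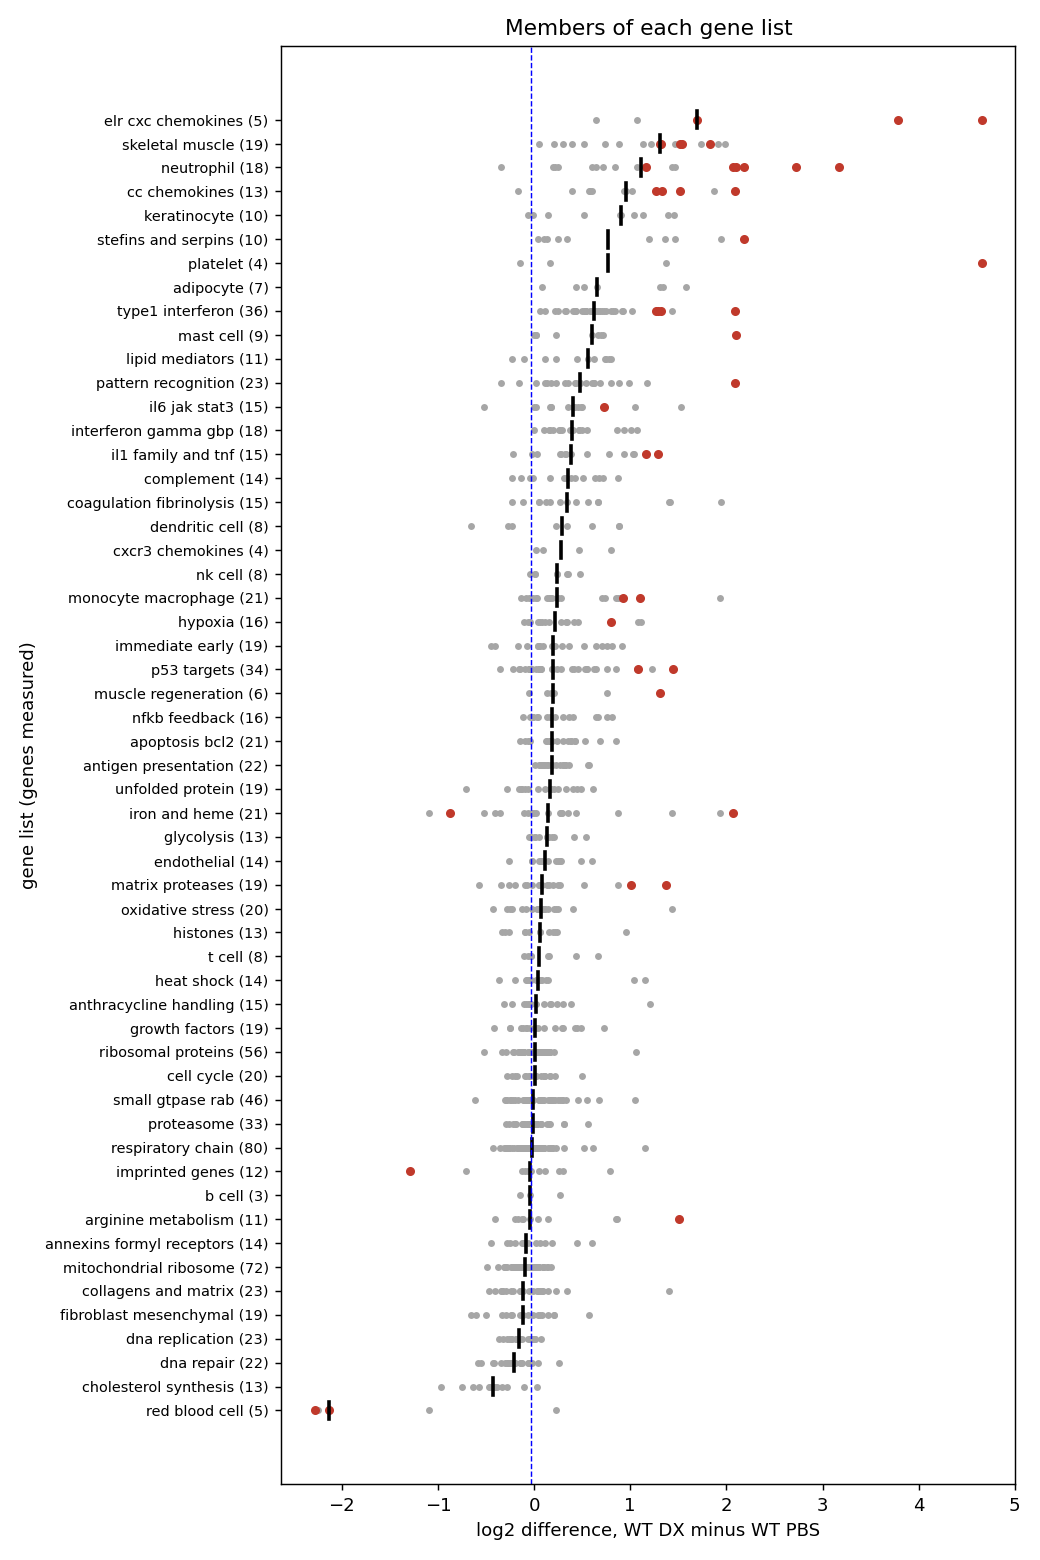
Log2 difference (WT DX minus WT PBS) on the x axis for the measured members of each gene list, with the number measured in brackets. Black bars are list medians, red points genes past an adjusted p of 0.05, and the dashed line the median of all genes, -0.03. Cxcr2 chemokines (1.70), skeletal muscle (1.31) and neutrophil genes (1.12) have the highest medians, and red blood cell genes (-2.13) the lowest.

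The 8 skeletal muscle genes called rose in the same comparison, while no muscle tissue is named in the labels. Tnnt3, a fast troponin, had 9.54, 8.19 and 8.93 on the DX arrays and 7.40, 7.19 and 6.57 on the PBS arrays, a rise of 1.83 (adjusted p = 0.0465). Mylpf, a fast myosin light chain, had 10.86, 9.98 and 10.81 on the DX arrays and 9.43, 8.86 and 8.80 on the PBS arrays, a rise of 1.52 (adjusted p = 0.0264). In both genes WT DX 2 was the lowest of the DX arrays, as in all 8. Ampd1, the muscle AMP deaminase, had 6.79, 5.98 and 6.49 on the DX arrays and 4.60, 5.01 and 5.03 on the PBS arrays. Klhl41, a sarcomere assembly factor, had 7.21, 5.97 and 6.56 on the DX arrays and 5.11, 5.24 and 4.94 on the PBS arrays. Neither was detected in PBS, and they were at least 2.00-fold and 2.24-fold higher (adjusted p = 0.0319 and 0.0452). Myf6, a muscle transcription factor also undetected in PBS, was at least 1.80-fold higher. Myl1, a myosin light chain, rose by 1.32, Tnni2, a fast troponin, by 1.31 and Nrap, a myofibril scaffold, by 1.22. None of the 8 passed in every fit that dropped a single array, and Klhl41 passed in only 2 of the 11.

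Of 23 listed muscle genes 19 were measured, 5 rose, 14 did not pass and all 19 were above 0 (median 1.31, or 1.21 with the bounds). Over all genes 0.555% were called higher and 45% were above 0. The list's mean was 1.08, 0.09 and 0.54 on the DX arrays and -0.31, -0.57 and -0.83 on the PBS arrays. Markers of skin and fat had medians above 0 without a call. The median of 10 keratinocyte genes was 0.90, or 0.51 with bounds, and 0.01 without WT DX 3, whose keratinocyte mean of 1.28 was far above the other DX arrays at -0.18 and 0.01. Krt16, a stress keratin, had 1.45 (adjusted p = 0.0717), Dmkn 1.40 and Sbsn 0.91. Krtdap was detected on WT DX 3 and on no other WT array. The 7 adipocyte genes had a median of 0.65, with Lpl at 1.58, Adipoq at 1.30 and Car3 at 1.34 (adjusted p = 0.151, 0.23 and 0.258). Fibroblast and mesenchymal genes had a median of -0.12 over 19 genes and no call. The part of neighbouring tissue in the other results was not tested.

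The 7 genes called lower fell as follows. Hbb-bs and Hbb-bt, near-identical beta globin genes whose probes can read both, had the largest falls. Hbb-bs had 9.75, 10.64 and 10.41 on the DX arrays and 12.34, 11.55 and 13.31 on the PBS arrays, and fell by 2.13 (SE 0.41, adjusted p = 0.0452). Hbb-bt had 9.27, 10.48 and 10.10 on the DX arrays and 12.07, 11.48 and 13.15 on the PBS arrays, and fell by 2.28 (SE 0.44, adjusted p = 0.0461). All 10 kept probes of the pair lay between -2.32 and -1.99, and WT PBS 3 was the highest array in both. With the chip as a block the differences were -3.07 and -3.22. Both calls ended in most fits that dropped a single array, WT DX 1, WT DX 3 and WT PBS 3 among those dropped. Hba-a1, an alpha globin, had 8.95, 10.27 and 9.60 on the DX arrays and 11.86, 10.84 and 12.87 on the PBS arrays. Its difference of -2.25 did not pass (adjusted p = 0.0608). Alas2, the haem enzyme of immature red cells, was detected on no DX array and 2 PBS arrays (adjusted p = 0.402). In the red blood cell list 2 of 5 measured genes fell, against 0.0659% of all genes.

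Tfrc, the transferrin receptor that brings iron into dividing cells, had 11.11, 11.25 and 11.01 on the DX arrays and 11.72, 12.09 and 12.17 on the PBS arrays, and fell by 0.87 (SE 0.15, adjusted p = 0.031). Hmox1, the haem-degrading enzyme, had 10.68, 10.27 and 10.71 on the DX arrays and 8.88, 8.90 and 9.57 on the PBS arrays. That difference of 1.44 did not pass (adjusted p = 0.0631), though its arrays did not overlap. In the list of 21 iron and haem genes Lcn2 rose and Tfrc fell (median 0.14). Dlk1, an imprinted Notch-like protein of immature cells, had 5.15, 5.81 and 5.29 on the DX arrays, where it was detected once, and 6.78, 6.67 and 6.66 on the PBS arrays. It fell by 1.29 (SE 0.18, adjusted p = 0.0174). It was the only call among 12 imprinted genes (median -0.04).

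Tenm3, a teneurin adhesion protein, had 6.15, 6.68 and 6.39 on the DX arrays and 7.22, 7.36 and 7.45 on the PBS arrays, and fell by 0.94, its other probe having -0.51. Hectd2, a ubiquitin ligase, had 6.46, 6.11 and 6.25 on the DX arrays and 6.91, 7.22 and 7.28 on the PBS arrays, and fell by 0.86. Engase, which trims glycans in the cytosol, had 4.89, 5.09 and 4.84 on the DX arrays, where it was not detected, and 6.17, 5.72 and 5.72 on the PBS arrays. It was at least 1.46-fold lower in DX (adjusted p = 0.0288). In each of these the DX arrays lay below all PBS arrays.

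Sterol synthesis genes lay below 0 without a call. None of 13 measured genes passed, and 12 of the 13 were below 0, where 45% of all genes were above 0. The median was -0.42, and -0.75 within BeadChip 5. Sc5d had -0.96, Lss -0.75, Cyp51 -0.63 and Mvk -0.47, all enzymes of the pathway (adjusted p = 0.159, 0.242, 0.242 and 0.237). The list's mean was -0.43, 0.20 and -0.44 on the DX arrays and 0.13, 0.40 and 0.14 on the PBS arrays, so that WT DX 2 lay among the PBS arrays. Housekeeping lists stayed close to 0. Cytosolic ribosomal proteins had a median of 0.01 over 56 genes, the respiratory chain -0.03 over 80, the proteasome -0.01 over 33 and mitochondrial ribosomal proteins -0.09 over 72, of which 58 were below 0. None of these genes passed. None of 20 oxidative stress genes passed (median 0.08). Trib3, a target of the amino acid response, had -0.71 (adjusted p = 0.0753) in the unfolded protein list, where none of 19 passed. In the hypoxia list 1 of 16 genes rose, Plin2, which coats lipid droplets, by 0.80, while Car9 and Adm had 1.08 and 1.12 (adjusted p = 0.288 and 0.271).

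The other 9 higher genes lie outside these roles. Sppl2a, an intramembrane protease of endosomes, had 7.89, 8.20 and 8.78 on the DX arrays and 6.79, 7.04 and 6.61 on the PBS arrays, a rise of 1.48 (adjusted p = 0.0301). Upk3bl, a uroplakin-like protein, had 6.07, 5.99 and 6.05 on the DX arrays and was detected on no PBS array, which made it at least 1.54-fold higher (adjusted p = 0.0134). Hyls1, a protein of centrioles, had 7.16, 7.31 and 7.09 on the DX arrays and 6.36, 6.37 and 6.45 on the PBS arrays, a rise of 0.79 (adjusted p = 0.0264). Its change was small and its arrays lay close together. Tcstv3 and 4933433H22Rik were undetected in PBS and at least 1.32-fold and 1.51-fold higher. Tppp3, a tubulin-binding protein, rose by 1.09, Cap1, an actin regulator, by 0.97 and Clip4 by 0.78.

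The same 66 genes can be set beside the comparison in KO hosts, which has only 2 DX arrays and in which none of the 66 passed. Since they were chosen on WT arrays, a larger difference in WT is favoured by the choice itself. In KO hosts 58 of the 66 had the same sign as in WT hosts. All chemokine, neutrophil, cytokine and interferon-induced genes called did so, while 6 of the 8 muscle genes had the opposite sign. In 64 of the 66 the difference was larger in size in WT hosts. Cxcl2 differed by 3.79 in WT hosts and 2.59 in KO hosts, and Cdkn1a by 1.44 in WT hosts and 1.16 in KO hosts. Cxcl1 differed by 1.70 in WT hosts and 0.33 in KO hosts, S100a9 by 3.17 and 1.56, and Lcn2 by 2.07 and 0.19. In Cxcl1, S100a9 and Lcn2, as in Cxcl2 but not in Cdkn1a, every KO PBS array lay above every WT PBS array. Cxcl1 had 11.42 and 11.12 on the KO DX arrays and 10.95, 10.80 and 11.05 on the KO PBS arrays. S100a9 had 10.76 and 10.13 against 9.08, 8.56 and 9.03, and Lcn2 10.02 and 9.36 against 9.41, 9.83 and 9.24. The test of the WT response minus the KO response gave no gene of 10623 in limma (0%), with 498 at an unadjusted p under 0.05 (4.69%). Clec2d had the smallest adjusted p of that test among the 66 (0.11), with 1.56 in WT hosts and -0.46 in KO hosts.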

How the data were processed

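The deposited table of non-normalized probe intensities, with a detection p-value per probe and array, was used as the authors deposited it; per the file headers it holds no background correction that is named. The authors' deposited processed table holds log2 values of 19215 probes, made with Partek per the submitters' processing notes, and served as an alternative only, because its WT DX 2 and WT PBS 2 columns equal the mean of replicates 1 and 3 of their group (largest gap 7e-05).

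Intensities of all 11 arrays were background-corrected from the detection p-values with an offset of 16 and quantile normalized (neqc, limma 3.58.1, R 4.3.3). Of 45281 probes, 20433 had detection p under 0.05 on 2 or more arrays. GEO's platform annotation, with symbols updated by Entrez ID, named 16252 of these, and the brightest probe stood for each of 10623 genes. Gene Fpr1 was not analysed here. A linear model with 4 groups (7 residual and 4.04 prior degrees of freedom) gave WT DX minus WT PBS, adjusted over all genes by Benjamini-Hochberg. The number of arrays limits the precision. A gene detected on no array of a group has a lower bound, from the higher of each array's lowest detected signal and the gene's own. The 20 largest rises, the 10 largest falls (of which 7 exist) and the next 8 genes by p are given by array, and up to 4 members of a list by p. The genes, lists and roles were chosen with earlier results of these data known. Promoters are RefSeq's (GRCm38.p6). Alternatives changed the correction, scaling, filter, probe rule, arrays fitted, blocks and weights.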

Additional observations from a re-analysis of the deposited data

Results flagged for a closer look

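Besides the named genes, 6 probes with no gene name in the annotation passed the same limma threshold, adjusted over all 20433 probes, and enter none of the counts above. ILMN_3009860 had 10.12, 9.37 and 10.39 on the DX arrays and 8.66, 8.25 and 8.28 on the PBS arrays, a difference of 1.56 (adjusted p = 0.0497). ILMN_1256025 had 7.64, 7.28 and 7.90 on the DX arrays and 6.05, 6.20 and 6.50 on the PBS arrays, a difference of 1.36 (adjusted p = 0.0187). ILMN_2735350 and ILMN_2883164 were detected on every DX array and no PBS array, with fitted differences of 1.46 and 0.95. ILMN_1258785, detected on 1 DX array and every PBS array, had -1.21, and ILMN_1236308 had -0.85 (adjusted p = 0.033 for both). The groups did not overlap in any of the 6.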

How the results depend on the processing

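All 66 called genes kept the sign of their difference in every setting run, while the number of calls (66, with 59 higher and 7 lower) moved widely. Median scaling gave 26 (22 higher, 4 lower). The authors' deposited table gave 5532 (2361 higher, 3171 lower), and 2793 (1328 higher, 1465 lower) without its 2 averaged columns. The median SD within groups was 0.0627 to 0.0728 in that table and 0.116 to 0.208 here. The 6 WT arrays alone in the fit gave 12, all higher and 0 lower in limma (870 genes at an unadjusted p under 0.05), and 14, all higher and 0 lower, when they were also normalized and filtered alone. The BeadChip as a random block gave 11 lower. Array weights gave 363 (297 higher, 66 lower), and a trended, robust variance 116 (109 higher). Leaving out BeadChip 2, chosen after seeing the data, gave 41 (37 higher, 4 lower). Fits that dropped a single array gave 10 to 233 calls, 10 to 207 higher and 0 to 26 lower. Correlations of same-numbered deviations were 0.06, 0.02 and -0.23, and those of other pairs -0.18 to 0.22. With 3 arrays per group they cannot settle whether the replicate numbers pair the samples. The replicate block gave 63 calls, 46 of them among the 66. The WT minus KO test gave 6001 with the authors' deposited table, 4119 without its averaged columns, 2 with array weights, 2 with the trended variance and 0 to 1 when a single array was dropped. Among uncalled genes, Itgax became 0.0248 without the Eif2s3y arrays, Anxa1 ranged from -0.20 to 0.0021 and Ifng from -0.16 to 0.80 when a single array was dropped. Cd3e became 0.0217 with no background correction, 0.0645 with median scaling, 0.0577 with the chip as a random block, 1.00 with the chip fixed, 0.57 with array weights, 0.68 in both versions of the authors' deposited table, 0.29 without the Eif2s3y arrays and 0.31 without BeadChip 2, and -0.39 to 0.60 when a single array was dropped. The causes were not tested.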
